A study of Chlorocebus sabaeus with 6 samples.

Results

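Integrin subunit transcripts were followed in COS-1 cells, a line of African green monkey (Chlorocebus sabaeus) kidney cells transformed with simian virus 40 sequences. Members were chosen by name, as the rows of the deposited table that carry the human Ensembl protein IDs of 10 integrin subunits. Of these 10 IDs, 7 had a row among the 51520 features of the table: the alpha subunits ITGA1 (ENSP00000282588_1), ITGA2 (ENSP00000296585_1), ITGA3 (ENSP00000007722_1), ITGA5 (ENSP00000293379_1) and ITGAV (ENSP00000261023_1) and the beta subunits ITGB4 (ENSP00000200181_1) and ITGB5 (ENSP00000296181_1). ITGA6, ITGB1 and ITGB3 were not analysed here. The rows carry human protein IDs at positions of the monkey genome. The table pairs no ID with a symbol, so the subunit names rest on the list of IDs. Each of the 7 rows lies on the chromosome that carries the gene of that name in the RefSeq annotation of assembly mChlSab1.0.hap1.

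The series has 2 groups of 3 libraries, titled no treatment (control) and lentivirus treated. After 14 h without serum, both groups received 2 ng/ml of epidermal growth factor (EGF) during 90 min. The controls carry the EGF treatment too, and no unstimulated cells were sampled. The labels also give 10% fetal bovine serum for both groups. The series title concerns SHOC2, which acts as a scaffold in RAS and ERK1/2 signalling. The cargo of the lentivirus is not stated in the labels. The SHOC2 transcript and markers of the cell type were not analysed here, because their IDs were not on the list used. Whether replicates were separate cultures is not stated either, so the spread behind each p-value may be technical.

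Integrins are transmembrane receptors made of 1 alpha and 1 beta chain, which bind matrix proteins outside the cell and link them to the actin or keratin skeleton inside. The pairing sets the ligand. ITGA1 and ITGA2 form collagen receptors with ITGB1, ITGA3 forms a laminin receptor with ITGB1, and ITGA5 forms the classical fibronectin receptor with ITGB1. ITGAV is the alpha chain with the widest choice of partners, among them ITGB1, ITGB3 and ITGB5, and its dimers bind vitronectin, fibronectin and the latent form of TGF-beta. ITGB4 pairs with ITGA6 in the hemidesmosomes of epithelial cells. Signalling through ERK downstream of growth factors and adhesion through integrins are known to feed into each other in adherent cells.

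The values are FPKM (fragments per kilobase, scaled to library size), which sets features of different length on 1 scale. The columns summed to between 2094230 and 2206925 FPKM and 27605 to 27874 features per library reached 1 FPKM. Read counts cannot be read from FPKM, so sequencing depth is unknown and counting error was not computed. The 28434 features whose mean reached 1 FPKM entered a limma fit on log2(FPKM + 1). A feature was called at a Benjamini-Hochberg adjusted p under 0.05 over all tested features. Log2 changes below are lentivirus-treated minus control on that scale, which understates the change of low features.

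Among the tested subunits, 1 was called. ITGAV rose by 31.0% in the lentivirus-treated libraries, and the other 6 rows had lower means there, by 7.94% to 17.6%, with no call among the 5 of them that were tested. Of the 7 rows, 6 passed the filter on low values (ITGB4 did not), and 1 of these 6 was called. The background rate of calls was 6.48% of all tested features, 2.89% upward and 3.59% downward. The median log2 change of the 6 tested subunits was -0.14, against -0.00097 for all tested features. Negative changes were found in 5 of the 6, where 50.1% of all tested features had one. The 6 subunits are read from the same 6 libraries and do not count as replicates of each other. In bulk RNA, a different share of cells and a different amount of RNA per cell cannot be told apart.

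**Figure D1:**
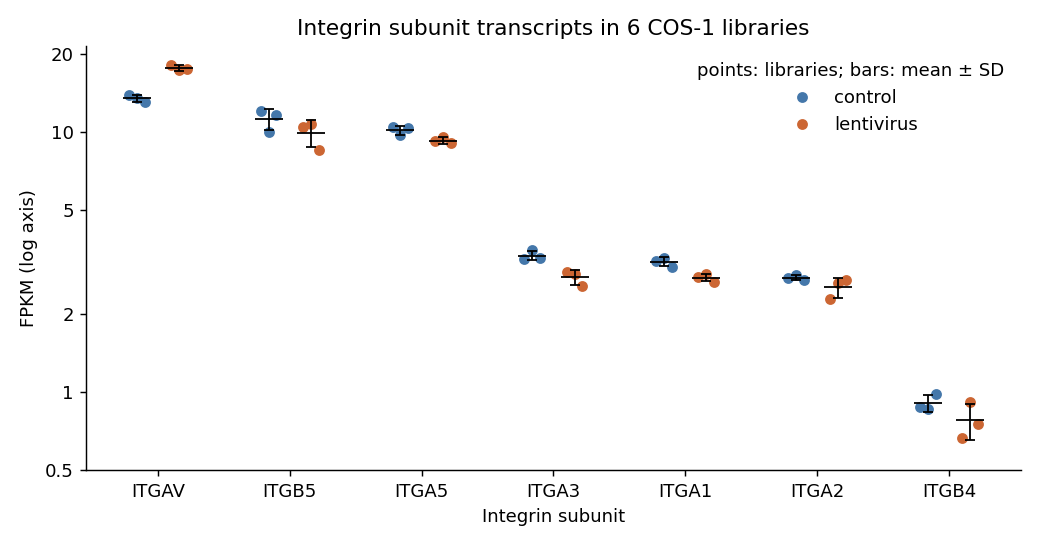
FPKM of the 7 integrin subunits (x axis, in order of mean level) in each library on a log axis, control in blue and lentivirus-treated in orange, with bars for mean ± SD of 3 libraries. ITGAV is the one subunit whose lentivirus-treated points (17.3 to 18.2 FPKM) lie above all its control points (13.1 to 13.9 FPKM).

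Among the 7 rows as deposited, ITGAV had the highest FPKM in every library. JK107444.1, a feature that overlaps the ITGA5 row, had means of 14.7 FPKM in control and 13.9 FPKM in treated libraries. Those of ITGAV were 13.5 and 17.7 FPKM. The ITGAV row lies on chromosome 10 from 72125961 to 72213160 in the positions of the deposited table and overlaps no other feature. Control replicates 1, 2 and 3 had 13.9, 13.5 and 13.1 FPKM, and lentivirus replicates 1, 2 and 3 had 18.2, 17.3 and 17.5 FPKM. The 3 treated libraries all lay above the 3 controls, and the gap between the groups was wider than either group's own range. The group means were 13.5 ± 0.378 and 17.7 ± 0.437 FPKM (SD, n = 3 each), a ratio of 1.31. The log2 change was 0.37 with SE 0.048 and a 95% limma interval of 0.24 to 0.49, and the limma adjusted p was 0.0217. The exact permutation p was 0.10, the smallest that 3 against 3 libraries allow.

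The rise of ITGAV was small beside the largest changes in these libraries but tight. Its within-group SD was 0.036 on the log2 scale, against a median of 0.13 over tested features. Every other tested subunit except ITGB5 was also below that median, from 0.040 (ITGA1) to 0.068 (ITGA2), without a call. By absolute log2 change, 19.7% of tested features exceeded ITGAV, and 2708 features had a larger rise. By p-value it stood 574th among the 28434 tested features. Called features had a median absolute log2 change of 0.42, so the change of ITGAV was of a common size among calls. The call was lost when any 1 of the 6 libraries was left out (limma adjusted p = 0.0705 to 0.0878, log2 change 0.35 to 0.38), when all features together gave 48 to 118 calls. Tested with overlapping features summed to loci, where ITGAV has the same values, its limma adjusted p was 0.00672. In fits on loci without any 1 library, which were not planned, its limma adjusted p stayed between 0.0222 and 0.0298. Since the values of ITGAV are the same on loci, the lower p-values come from the other features in the fit.

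The surroundings of ITGAV on chromosome 10 were measured in the same way. The 20 nearest tested loci were taken by order along the chromosome. In each library the median of their deviations from the mean over all libraries was found. The treated mean of these medians minus the control mean was 0.071. This difference is called the median change of the 20 nearest loci for each subunit below. Relative to the mean over all libraries, that neighbourhood stood at -0.025, -0.0077 and -0.076 in the control libraries and at 0.052, -0.0041 and 0.056 in the lentivirus-treated ones, so the 2nd treated library sat next to 2 of the controls on this measure. With the neighbourhood's median subtracted in each library, the log2 change of ITGAV was 0.30 with a limma adjusted p of 0.0191. The change of ITGAV was thus larger than the median of its neighbours, which were not compared with it one by one.

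ITGA5, the alpha chain of the classical fibronectin receptor, had the 2nd highest FPKM of the alpha rows as deposited. Its row is on chromosome 11 from 50512110 to 50535126. Control replicates 1 to 3 had 10.4, 9.72 and 10.4 FPKM, and lentivirus replicates 1 to 3 had 9.25, 9.55 and 9.04 FPKM. All treated libraries lay below all controls, by a margin narrower than the range of the controls. The log2 change of -0.12 (SE 0.056, 95% limma interval -0.26 to 0.021) did not pass the test (limma adjusted p = 0.268). Its row overlaps 3 features with monkey transcript accessions. JK107444.1 had 14.7 ± 1.17 FPKM in control libraries and 13.9 ± 0.660 FPKM in treated ones, JK103266.1 had 8.86 ± 0.900 and 7.50 ± 1.94, and JK094550.1 had 0.358 ± 0.113 and 0.457 ± 0.223 (SD, n = 3 each). How reads were divided between overlapping features was not stated in the labels, so the level of ITGA5 may be split. The summed locus gave a log2 change of -0.13 (limma adjusted p = 0.200). The 20 nearest loci on chromosome 11 had a median log2 change of -0.063. With that median subtracted, the change of the summed ITGA5 locus was -0.067 (limma adjusted p = 0.520).

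ITGA3, the alpha chain of a laminin receptor, had the lowest ratio of treated to control means among the 7 rows, 0.824. It lies on chromosome 16 from 43249512 to 43281670. The control libraries had 3.25, 3.51 and 3.29 FPKM and the lentivirus-treated ones 2.89, 2.84 and 2.56 FPKM. The groups did not overlap, and the 3rd treated library was the lowest. The mean went from 3.35 ± 0.136 to 2.76 ± 0.178 FPKM (SD, n = 3 each). The log2 change was -0.21 (SE 0.081, 95% limma interval -0.41 to -0.0060) with an unadjusted limma p of 0.0455 and an adjusted p of 0.196, which does not pass. The 20 nearest loci on chromosome 16 had a median log2 change of -0.14. With that median subtracted, the change of ITGA3 was -0.074.

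The 2 collagen-binding alpha chains are neighbours. In the deposited table ITGA1 (chromosome 4, 49082786 to 49246183) and ITGA2 (chromosome 4, 49280487 to 49380048) are 34303 bases apart with 0 features wholly between them, and the RefSeq table also lists them side by side. ITGA1 had 3.20, 3.28 and 3.03 FPKM in the control libraries and 2.77, 2.83 and 2.65 FPKM in the treated ones. All 3 treated values were below all 3 controls. Its log2 change was -0.15 (SE 0.076, 95% limma interval -0.34 to 0.039, limma adjusted p = 0.295). ITGA2 had 2.75, 2.81 and 2.69 FPKM in the control libraries and 2.28, 2.62 and 2.70 FPKM in the treated ones. Here the groups overlapped, because the 3rd treated library reached the level of the lowest control. Its log2 change was -0.088 (SE 0.088, 95% limma interval -0.31 to 0.13, limma adjusted p = 0.600). The 20 loci nearest to each had median changes of -0.010 and -0.0013.

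The ITGA1 row spans other features, and its value depends on keeping them apart. A short feature inside it, ENSP00000274311 (49094834 to 49096295), had 25.8 ± 3.60 FPKM in control and 27.3 ± 3.12 FPKM in treated libraries (SD, n = 3 each), far above ITGA1 itself. In the RefSeq table the gene PELO lies inside ITGA1; the deposited table does not name the feature. Summed over the whole locus the log2 change was 0.041 (limma adjusted p = 0.812), opposite in sign to that of the ITGA1 row. The features JK124343.1 and JK093360.1 at the other end of ITGA1 had 1.13 ± 0.421 and 0.158 ± 0.164 FPKM in control libraries and 0.344 ± 0.596 and 0.709 ± 0.617 FPKM in treated ones (SD, n = 3 each). In treated replicates 2 and 3, JK124343.1 was near 0 while JK093360.1 had 0.991 and 1.13 FPKM; these features overlap each other.

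**Figure D2:**
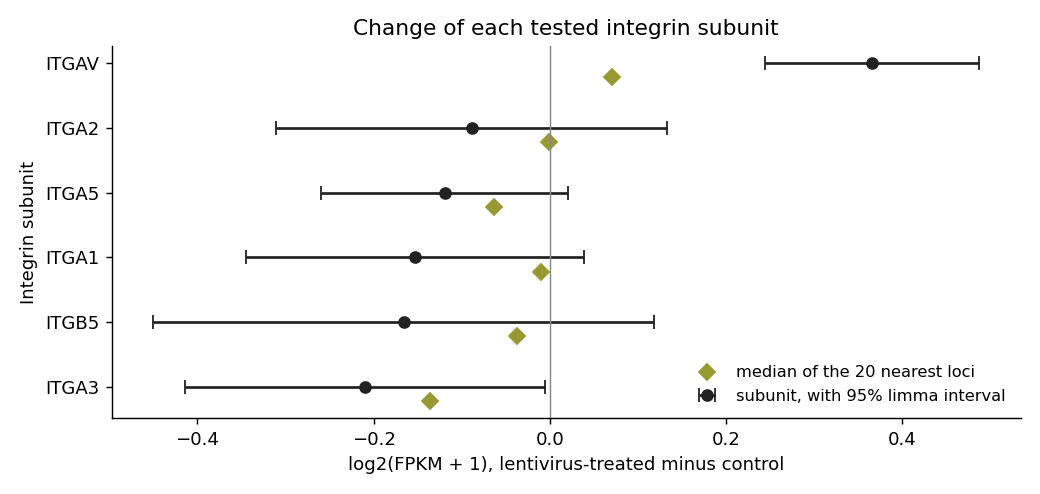
Log2 change (x axis, lentivirus-treated minus control, log2(FPKM + 1)) of the 6 tested integrin subunits with 95% limma intervals, and the median change of the 20 nearest loci as diamonds. ITGAV at 0.37 stands apart to the right, and the other 5 lie between -0.21 and -0.088. The diamonds are at 0.071 for ITGAV, -0.14 for ITGA3, -0.063 for ITGA5, -0.038 for ITGB5, -0.010 for ITGA1 and -0.0013 for ITGA2.

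ITGB5, the beta chain that pairs with ITGAV in a vitronectin receptor, was the most abundant beta subunit measured. Its row is on chromosome 22 from 55944864 to 56069927. Control replicates 1 to 3 had 12.0, 10.0 and 11.7 FPKM and lentivirus replicates 1 to 3 had 10.5, 10.7 and 8.55 FPKM. The groups overlapped: the 2nd control was below 2 of the treated libraries. The means were 11.2 ± 1.08 and 9.92 ± 1.19 FPKM (SD, n = 3 each). The log2 change was -0.17 with SE 0.11 and a 95% limma interval of -0.45 to 0.12 (limma adjusted p = 0.436). ITGB5 had the widest spread of the tested subunits, a within-group SD of 0.15 on the log2 scale. The 20 nearest loci on chromosome 22 had a median log2 change of -0.038. With that median subtracted, the change of ITGB5 was -0.13 (limma adjusted p = 0.447).

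ITGB4, the beta chain of hemidesmosomes, was the least abundant and was left out of the test by the filter. Its row is on chromosome 16 from 45926807 to 45959704. The control libraries had 0.879, 0.859 and 0.981 FPKM and the treated ones 0.668, 0.912 and 0.752 FPKM, so the groups overlapped. Tested with no filter, its log2 change was -0.10 (95% limma interval -0.26 to 0.059, limma adjusted p = 0.603). Its partner ITGA6 was not analysed here.

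Counted together, the groups did not overlap in 4 of the 6 tested subunits, ITGAV upward and ITGA1, ITGA3 and ITGA5 downward. Groups that do not overlap were found in 31.6% of all tested features, 15.1% upward and 16.5% downward. The exact permutation p was 0.10 for each of these 4 subunits. Under TPM, median ratio and quantile scaling the split remained at 5 negative changes and 1 positive one. With overlapping features summed to loci, and also after subtracting the nearest 20 loci, 4 of the 6 changes were negative.

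For the rows as deposited, the order of levels was the same in both groups at its top and bottom. In the control libraries ITGAV (13.1 to 13.9 FPKM) lay above ITGB5 (10.0 to 12.0), whose range overlapped that of ITGA5 (9.72 to 10.4). ITGA3 (3.25 to 3.51), ITGA1 (3.03 to 3.28) and ITGA2 (2.69 to 2.81) followed. In this trio the ranges of ITGA3 and ITGA1 overlapped and ITGA2 lay lower. In the treated libraries the trio could not be ordered, with ranges of 2.56 to 2.89, 2.65 to 2.83 and 2.28 to 2.70 FPKM. ITGAV exceeded 54.7% of tested features by mean level and ITGA2 16.7%, so none of the 7 was among the most abundant transcripts.

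ITGAV made up more of the summed FPKM of the 5 alpha rows in the treated libraries. Shares were taken within each library over the summed FPKM of the 5 alpha subunits, a measure that scaling between libraries cannot move. ITGAV made up 41.4%, 41.1% and 40.3% of this sum in control replicates 1 to 3 and 51.4%, 49.3% and 50.8% in lentivirus replicates 1 to 3. All 3 treated shares lay above all 3 controls, with means of 40.9% ± 0.544 in control and 50.5% ± 1.08 in treated libraries (SD, n = 3 each). ITGA5 had the opposite order, with 30.9% ± 1.16 in control and 26.5% ± 0.542 in treated libraries. The shares of ITGA3, ITGA1 and ITGA2 were 10.2%, 9.63% and 8.35% in control and 7.89%, 7.86% and 7.24% in treated libraries. For all 5 shares the groups did not overlap, with an exact two-sided permutation p of 0.10 and a Benjamini-Hochberg adjusted p of 0.10 over 5 shares, the smallest this design allows. With the overlapping features of ITGA1 and ITGA5 summed in, the share of ITGAV was 4.65 percentage points higher in the treated libraries in place of 9.54 (exact permutation p = 0.10). This leaves ITGAV as it is and enlarges the total, so its share in each library is lower than printed above. On that sum the differences were -0.305 points for ITGA2 (exact permutation p = 0.30), -0.755 for ITGA3 (0.10), -4.11 for ITGA5 (0.20) and 0.517 for ITGA1 (0.70), so the separation of all 5 shares holds for the rows as deposited only. Shares are parts of one total, so a larger part for one subunit leaves less for the others. In the rows as deposited, ITGAV was higher and the sum of the other alpha subunits lower in every treated library than in any control. The separation of the ITGAV share follows from that, so its test adds nothing, and the 5 tests do not count as 5 separate results.

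**Figure D3:**
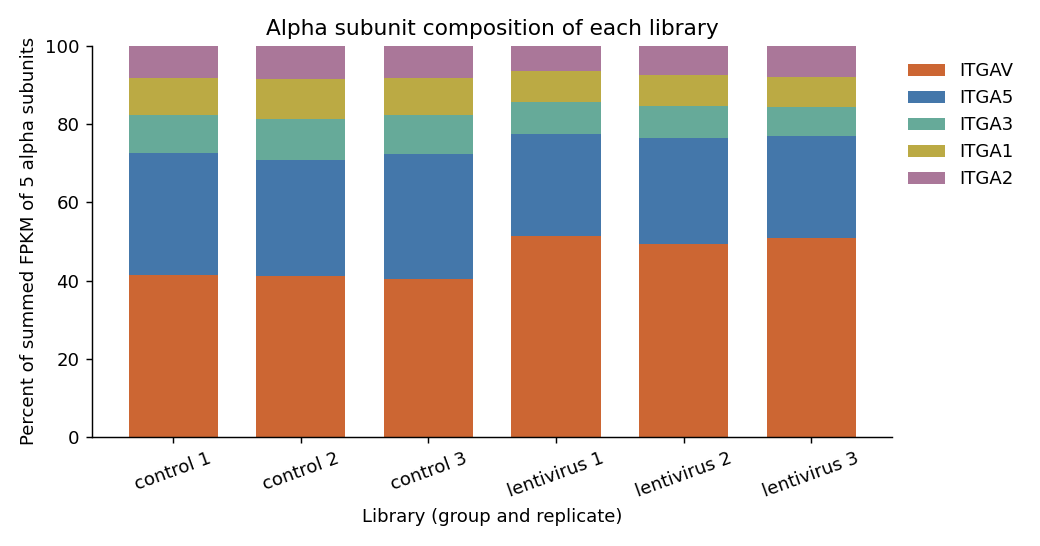
Percent of the summed FPKM of 5 integrin alpha subunits (y axis) in each of the 6 libraries (x axis), stacked by subunit. The ITGAV segment at the base is 40.3% to 41.4% in control and 49.3% to 51.4% in lentivirus-treated libraries.

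With ITGAV taken out of the sum, no alpha subunit stood apart. Among the other 4, an alternative added after the values had been seen, the share of ITGA5 was 52.3% ± 1.74 in control and 53.6% ± 0.254 in treated libraries (SD, n = 3 each). ITGA3 had 17.2% ± 0.816 and 15.9% ± 0.861, ITGA1 had 16.3% ± 0.671 and 15.9% ± 0.228, and ITGA2 had 14.1% ± 0.362 and 14.6% ± 1.34. The groups overlapped for all 4 shares. The summed level of these 4 was 19.6, 19.3 and 19.4 FPKM in control and 17.2, 17.8 and 17.0 FPKM in treated libraries. The sum of all 5 alpha chains was 32.9 ± 0.512 FPKM in control and 35.0 ± 0.467 FPKM in treated libraries, and its groups did not overlap either.

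ITGAV was also set against a partner and against ITGA5, whose main ligand is fibronectin. These ratios were picked with the values in view, in place of a planned ratio to ITGB1. They use the rows as deposited, so the ratio to ITGA5 leaves out the features that overlap its row. ITGAV over ITGB5 was 1.15, 1.35 and 1.12 in control replicates 1 to 3 and 1.73, 1.62 and 2.05 in lentivirus replicates 1 to 3. Every treated library had more ITGAV per ITGB5 than any control, although ITGB5 alone did not separate the groups. ITGAV over ITGA5 was 1.33, 1.39 and 1.26 in control and 1.96, 1.82 and 1.94 in treated libraries, a mean of 1.33 ± 0.0621 against 1.91 ± 0.0785 (SD, n = 3 each). ITGA1 over ITGA2, the pair of neighbours, was 1.15 ± 0.0217 and 1.09 ± 0.117, with groups that overlapped. No test is given for these ratios: ITGAV was higher and ITGA5 lower in every treated library than in any control, which fixes the direction of their ratio.

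**Figure D4:**
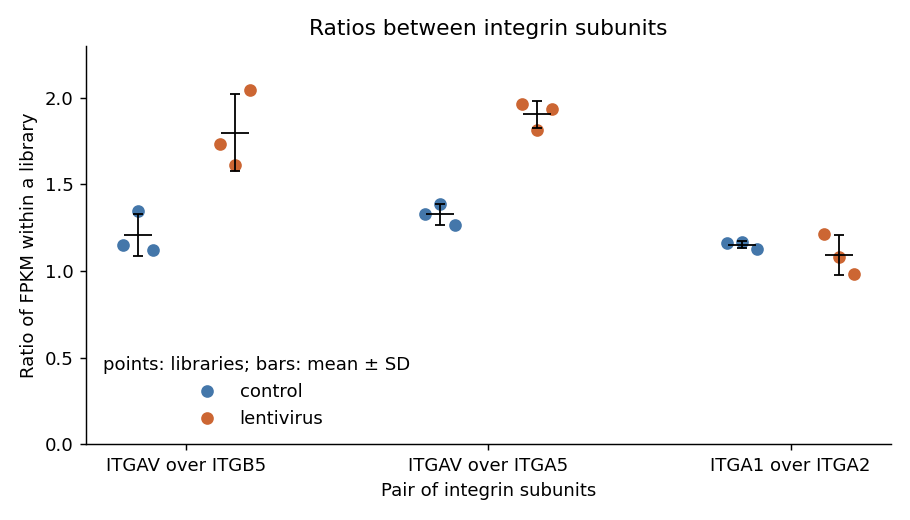
Ratio of FPKM within a library (y axis, from 0) for 3 pairs of integrin subunits, control in blue and lentivirus-treated in orange, with bars for mean ± SD of 3 libraries. Both ratios with ITGAV on top are higher in every treated library (1.62 to 2.05 over ITGB5 and 1.82 to 1.96 over ITGA5) than in any control (1.12 to 1.35 and 1.26 to 1.39), while ITGA1 over ITGA2 overlaps.

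Over the 6 libraries, 2 features followed ITGAV most closely. Among 6494 tested features that overlap no other and had a mean of at least 5 FPKM, the highest Pearson r with ITGAV on the log2(FPKM + 1) scale was that of ENSP00000261593 (chromosome 18, 48606520 to 48642648), 0.998. It had 76.2 ± 3.37 FPKM in control and 116.3 ± 5.96 in treated libraries (SD, n = 3 each; log2 change 0.60, limma adjusted p = 0.0137). ENSP00000472940 (chromosome 17, 20222556 to 20243240) followed, also at 0.998, with 226.9 ± 3.29 and 262.5 ± 3.97 FPKM (log2 change 0.21, limma adjusted p = 0.0303). With 6 libraries in 2 groups, any tight difference between the groups gives a high r: 377 of the 6494 features had one above 0.95.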

How the data were processed

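The authors deposited 1 table of FPKM values per feature and library; the FPKM unit is read from its name and values. The submitters' processing notes name Cufflinks 2.1.1, Cuffdiff, Bowtie2 2.1.0.0, TopHat2 2.0.10 and CASAVA. Their roles, the genome build and the handling of overlapping features are not stated there. Positions are those of the table.

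From these values, log2(FPKM + 1) was fitted with limma 3.58.1 (eBayes with trend, R 4.3.3) over the 28434 of 51520 features whose mean reached 1 FPKM, with the group as the only term and two-sided p-values adjusted over all of them. Of these steps, only the limma fit was tested on simulated data, drawn with independent errors. Shares were compared with exact two-sided permutation tests (scipy 1.17.1). Overlapping features were also summed to 20565 loci, without regard to strand. Of the 51520 IDs, 0 matched the RefSeq table, so the planned lists of adhesion partners, ligands, other subunits and cell type markers were not analysed here. Every member found was described, and library values given for all 7. Members and lists were chosen with earlier results of these data known.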

Additional observations from a re-analysis of the deposited data

How the results depend on the processing

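ITGAV kept its direction in all 23 alternatives, with log2 changes of 0.29 to 0.39, and kept its call under both other pseudocounts, both other filters, 3 scalings, without the variance trend, on loci and after subtracting the nearest 20 loci. The count of called subunits, 1, became 0 without any 1 library (range 0 to 0) and 0 with the replicate block, where limma gave ITGAV an adjusted p of 0.126; 1 subunit had an unadjusted limma p under 0.05 in each of these fits. The count of 1842 called features became 1197 with no filter, 3134 on loci, 48 to 118 without 1 library and 0 with the replicate block (6084 at an unadjusted limma p under 0.05). Same-numbered libraries showed little sign of pairing, with deviations that correlated at 0.13, -0.028 and 0.0028 over features. The labels do not state whether they were prepared together, and these correlations cannot settle it. On the TPM scale the called features split into 869 up and 870 down, against 821 and 1021.

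ITGA1 reversed where its row was summed with the features it overlaps: 0.041 log2 on loci, 0.051 after subtracting the nearest 20 loci, and 0.035 to 0.118 in 4 of 6 fits on loci without 1 library (0.035, 0.118, 0.066 and 0.094), while its share of the alpha sum rose by 0.517 percentage points. The ITGA1 locus sum is mostly the feature nested in ITGA1. On loci the ITGAV share difference was 4.65 points in place of 9.54. The beta sum held only ITGB5 and ITGB4, and ITGB4 was under the filter, so the share of ITGB5 in it says little about beta chains. That share was 92.5% in control and 92.7% in treated libraries, a difference of 0.188 percentage points. The difference was -0.468 to 0.579 without 1 library, with -0.0207 without control replicate 2. ITGA2, ITGA3, ITGA5 and ITGB5 kept negative log2 changes and no call throughout. The ratio of summed alpha subunits to ITGB1 was not run, and a beta share without ITGB4 has no other member to be set against. With depth unknown, counting error could not be separated from other spread.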
